A study of Mus musculus with 93 samples.

Results

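Kupffer cell and macrophage markers were followed across the livers of 93 mice, 48 of them PPARα -/- (129S4/SvJae) and 45 wild-type (WT, 129S1/SvImJ). The set holds 10 genes, Clec4f, Cd5l, Marco, Vsig4, C1qa, C1qb, C1qc, Lyz2, Csf1r and Cd68. All probesets annotated to these symbols were taken, which gave 14 of the 11412 probesets tested, with 3 each for C1qb and Csf1r and 1 for each other gene. All mice were male, had fasted for 4 hours and were killed 6 hours after a single gavage of 400 µl. In a first run of experiments the mice received WY14643 or fenofibrate (synthetic PPARα agonists, 10 mg/ml in carboxymethyl cellulose), a triglyceride of C18:1 (oleic acid), C20:5 (EPA) or C22:6 (DHA), or carboxymethyl cellulose alone as control. A later run, made a few months afterwards with controls of its own, used triglycerides of C10:0, C18:2 (linoleic acid) and C18:3 (linolenic acid). The PPARα -/- groups held 5 mice each, except 4 for C20:5 and for the controls of the later run. The WT groups held 5 mice each, except 3 for the controls of the first run and 4 for WY14643, C18:2 and the controls of the later run. The age was 12 to 20 weeks for the first controls and the WY14643 groups, and 8 to 24 weeks for every other group. The deletion is constitutive and not confined to hepatocytes, and the genotypes are different 129 substrains, so that genotype and substrain cannot be told apart.

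Kupffer cells are the resident macrophages of the liver and line the sinusoids, where they clear microbes, particles and aged red cells from portal blood. Like other tissue macrophages they need signals through the CSF1 receptor and the transcription factor PU.1, and in the mouse the lectin Clec4f marks them specifically. They are also a major source of C1q, the recognition molecule of the classical complement pathway, and carry the complement receptor Vsig4. In liver RNA they are a minority beside hepatocytes, and in such RNA a larger number of cells and more RNA per cell cannot be told apart.

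Since the markers moved together between mice, the sequences around their transcription start sites are shown for Clec4f, the marker most specific to Kupffer cells, and for Cd5l, Vsig4, C1qb and C1qc. RefSeq (GRCm38.p6) gave a promoter of 250 bases before to 50 after the start site for 8 of the 10 genes. They lie at chr6:83656067-83656366 (Clec4f, minus strand), chr3:87357631-87357930 (Cd5l, plus strand), chrX:96293389-96293688 (Vsig4, minus strand), chr4:136886151-136886450 (C1qb, minus strand) and chr4:136892865-136893164 (C1qc, minus strand). Capitals mark the core of the PU.1 motif, GAGGAA, or its reverse complement TTCCTC on the opposite strand.
Clec4f: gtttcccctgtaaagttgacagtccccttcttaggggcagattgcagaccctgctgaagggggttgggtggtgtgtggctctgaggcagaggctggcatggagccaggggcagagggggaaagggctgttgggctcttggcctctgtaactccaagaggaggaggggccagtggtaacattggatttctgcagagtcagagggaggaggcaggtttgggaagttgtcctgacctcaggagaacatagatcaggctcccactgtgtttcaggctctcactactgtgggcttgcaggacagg
Cd5l: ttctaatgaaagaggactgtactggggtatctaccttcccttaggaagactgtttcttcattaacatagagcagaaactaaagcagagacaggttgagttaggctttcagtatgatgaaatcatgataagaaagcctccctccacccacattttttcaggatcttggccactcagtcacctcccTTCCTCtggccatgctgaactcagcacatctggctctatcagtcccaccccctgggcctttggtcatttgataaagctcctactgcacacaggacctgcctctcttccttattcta
Vsig4: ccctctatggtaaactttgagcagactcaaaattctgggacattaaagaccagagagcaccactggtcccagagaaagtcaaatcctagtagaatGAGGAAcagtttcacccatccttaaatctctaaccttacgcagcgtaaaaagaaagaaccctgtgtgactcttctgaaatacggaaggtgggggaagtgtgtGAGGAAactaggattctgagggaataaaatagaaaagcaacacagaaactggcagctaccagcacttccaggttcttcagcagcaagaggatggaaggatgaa
C1qb: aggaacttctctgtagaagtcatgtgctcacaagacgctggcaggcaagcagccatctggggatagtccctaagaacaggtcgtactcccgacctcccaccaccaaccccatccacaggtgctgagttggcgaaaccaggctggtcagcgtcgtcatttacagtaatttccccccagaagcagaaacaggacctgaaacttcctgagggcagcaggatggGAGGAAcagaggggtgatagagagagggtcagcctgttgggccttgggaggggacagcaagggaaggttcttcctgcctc
C1qc: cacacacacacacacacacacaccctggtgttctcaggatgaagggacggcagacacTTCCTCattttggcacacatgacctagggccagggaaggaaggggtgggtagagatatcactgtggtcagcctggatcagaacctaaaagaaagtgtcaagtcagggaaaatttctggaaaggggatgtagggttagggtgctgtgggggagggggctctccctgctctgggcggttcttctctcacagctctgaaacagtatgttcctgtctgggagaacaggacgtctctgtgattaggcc
The core stood once in C1qb, 30 bases before the start site, once in C1qc at 193 bases before it and once in Cd5l at 66 bases before it, these last matches on the opposite strand. Vsig4 held it at 155 and at 53 bases before the start, and Clec4f did not hold these letters. It was also found in the promoters of Marco and Cd68 and not in that of Lyz2, so that 6 of 8 promoters held it, against 28.3% of all 32851 promoters searched on both strands. The AP-1 motif TGANTCA occurred in the promoter of Cd68 alone, against 7.81% of all promoters, and the E-box CACGTG in 0 of 8, against 7.15%. The direct repeat DR1 was also searched and occurred in 0 of 8, against 0.0396%, a share so low that its absence says little. A match of this kind is a description of letters and not a binding site.

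Array signals were those of a GC-corrected summary, with a median of 135 to 145 units on arrays of the first run, against 154 to 167 units on those made later. Of 3 Ppara probesets, 1457721_at separated the genotypes, with log2 signals of at most 7.93 in PPARα -/- livers and at least 8.10 in WT livers. The others overlapped, with 9.0 to 10.78 in PPARα -/- livers and 10.34 to 11.62 in WT livers for 1439675_at, and 7.05 to 9.85 in PPARα -/- livers and 8.32 to 11.18 in WT livers for 1449051_at. Because levels differed between runs, each treatment was compared within its run. PPARα -/- control replicate 1 of the first run stood apart from its group in the genes described here, and the main results that use it are also given without it.

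Most of the markers gave clear signals in whole liver. Clec4f, Cd5l, Vsig4, C1qa, C1qb and the Csf1r probeset 1419872_at had a median rank between the 58.1 and the 72.2 percentile of all probesets, Lyz2 was at 55.7 and C1qc at 47.1, and Clec4f was above a log2 signal of 5 in all 93 arrays. Marco, a scavenger receptor, lay at the median percentile 0.298 and was above that level in 3 arrays. Cd68, a glycoprotein of lysosomes, lay at the percentile 2.8 and was above it in 8 arrays. The defining Kupffer cell marker was thus measured in every liver, while Marco and Cd68 were measured near the lower end of the array.

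Every marker was higher in PPARα -/- livers than in WT livers when the difference was averaged over the 10 treatments. Clec4f had log2 signals of 6.49 to 9.27 with a median of 8.73 in the 48 PPARα -/- mice, and 6.70 to 8.48 with a median of 7.80 in the 45 WT mice. Its difference was 0.86 on the log2 scale (SE 0.07, limma adjusted p = 2.4e-17). Cd5l, a protein secreted by macrophages, had a median of 8.80 in PPARα -/- mice and of 7.81 in WT mice, and differed by 0.95 (SE 0.10, adjusted p = 6.4e-14). Ranges of the genotypes overlapped for every marker. All 14 probesets and 10 genes passed an adjusted p of 0.05 in the upward direction, against 36% of all probesets higher and 65.6% changed either way. The 14 differences lay between 0.50 and 0.97 with a median of 0.78, and the median over all probesets was 0.02.

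The chains of C1q, encoded by neighbouring genes, differed by similar amounts. C1qa had a median log2 signal of 8.07 in PPARα -/- mice and 7.18 in WT mice, a difference of 0.81 (SE 0.11). C1qc had medians of 7.54 in PPARα -/- mice and 6.60 in WT mice and differed by 0.88 (SE 0.10). The 3 probesets of C1qb differed by 0.61 to 0.81. Vsig4, which binds fragments of C3, showed a smaller difference of 0.52 (SE 0.10), with medians of 8.30 in PPARα -/- mice and 7.66 in WT mice. The adjusted p values of these genes lay between 6.9e-12 and 1e-05.

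Of the markers shared with other macrophages, Csf1r, the receptor for CSF1, differed by 0.61 to 0.69 over its 3 probesets. Cd68 differed by 0.97 (SE 0.14, adjusted p = 4.1e-09), with medians of 4.26 in PPARα -/- mice and 3.33 in WT mice. Lyz2, the lysozyme of macrophages and granulocytes, had medians of 7.74 in PPARα -/- mice and 7.32 in WT mice and the smallest difference of the set, 0.50 (SE 0.15, adjusted p = 0.0028). Marco differed by 0.90 (SE 0.18, adjusted p = 5.8e-06). For these dim genes the size depended on the scale: with 16 intensity units added before taking logs, Marco differed by 0.24 and Cd68 by 0.51.

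**Figure D1:**
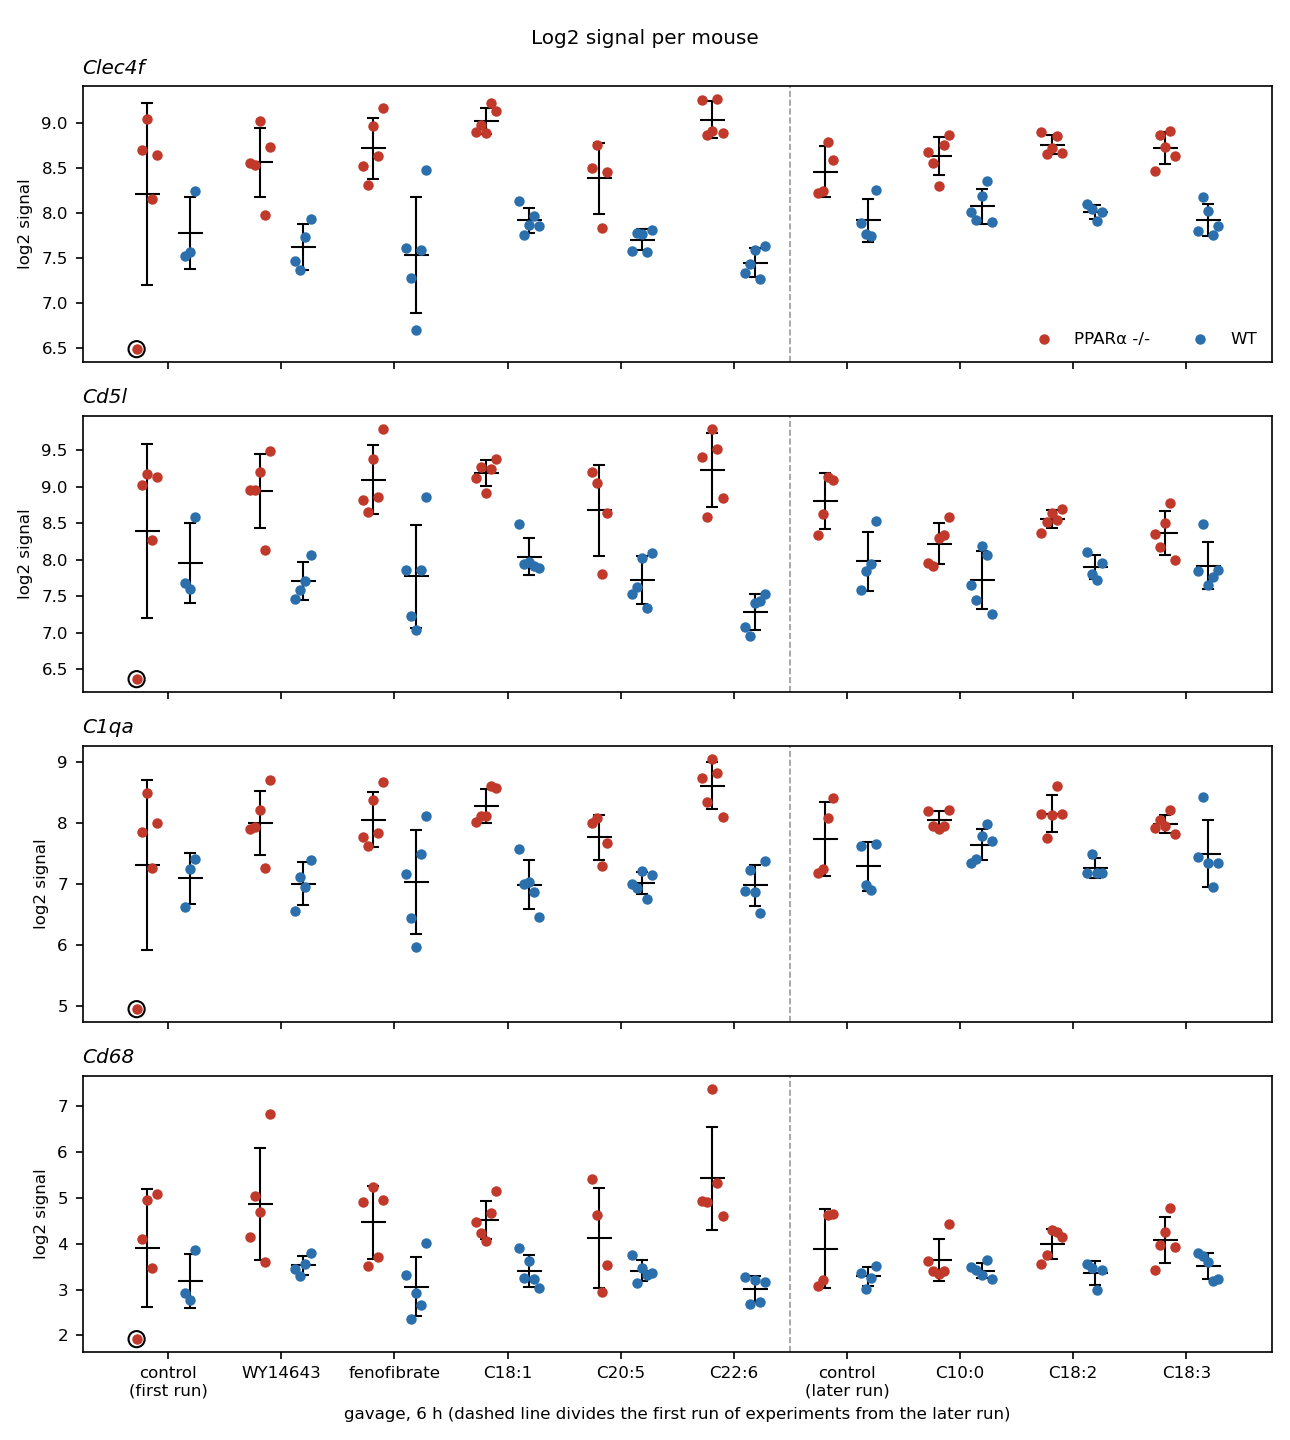
Log2 signal of Clec4f, Cd5l, C1qa and Cd68 (y axes) in each mouse by gavage (x axis), PPARα -/- in red and WT in blue, with the mean and SD of each group in black and PPARα -/- control replicate 1 circled. The groups given C22:6 are the farthest apart, with Clec4f at 8.86 to 9.27 in PPARα -/- mice and 7.27 to 7.63 in WT mice.

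The difference was found in both runs and was larger in the first. Over the 6 treatments of the first run all 14 probesets were higher in PPARα -/- mice (34.5% of all probesets), with a median difference of 0.91, or 0.98 without PPARα -/- control replicate 1. Over the 4 treatments of the later run 9 of 14 were higher (22% of all probesets), with a median of 0.50. The probesets called in the later run belonged to Clec4f (0.66, SE 0.12, adjusted p = 2.4e-06), Cd5l, C1qa, C1qb, C1qc and Csf1r. Vsig4 (0.23), Lyz2 (0.29), Marco (0.48), Cd68 (0.51) and the Csf1r probeset 1423593_a_at (0.33) did not pass, with adjusted p values between 0.053 and 0.35. The runs differed in treatments and mice, and their difference in this value was not tested.

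The extremes of the group means were shared by most members. Groups of both runs are ranked here, although levels differed between runs. All 10 genes had their highest mean in PPARα -/- mice given C22:6, and 8 of 10 their lowest in WT mice given C22:6. For 5 genes, Clec4f, Cd5l, C1qb, Csf1r and Cd68, every PPARα -/- group mean lay above every WT group mean, and without PPARα -/- control replicate 1 this held for 7 genes. Clec4f averaged 9.04 ± 0.21 (SD, n = 5) in PPARα -/- mice given C22:6 and 9.02 ± 0.15 (n = 5) in those given C18:1, and its lowest PPARα -/- mean was 8.21 ± 1.01 (n = 5), in controls of the first run. Without replicate 1 these controls averaged 8.64 ± 0.36 (n = 4), and the lowest PPARα -/- mean was that with C20:5, 8.39 ± 0.39 (n = 4). Between the extremes the order differed from gene to gene. Among WT groups it lay between 7.45 ± 0.16 (n = 5) with C22:6 and 8.07 ± 0.19 (n = 5) with C10:0. Of the 19 steps between neighbouring groups in this order, 1 exceeded the larger SD of the pair, that between C18:1 and C18:2 in PPARα -/- mice, which belong to different runs.

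Within treatments, C22:6 gave the clearest separation of the genotypes. Clec4f was 9.25, 8.86, 8.91, 9.27 and 8.89 in the 5 PPARα -/- mice, and 7.33, 7.43, 7.59, 7.27 and 7.63 in the 5 WT mice, on the log2 scale. The difference was 1.59 (SE 0.22, adjusted p = 1.8e-08), and no mice overlapped. Cd5l was 9.41, 8.58, 9.80, 9.52 and 8.84 in PPARα -/- mice, and 7.08, 6.95, 7.40, 7.43 and 7.53 in WT mice, a difference of 1.95 (SE 0.30, adjusted p = 1.4e-07). All 14 probesets were higher in PPARα -/- mice (17.5% of all probesets), by 1.38 to 2.43 with a median of 1.67. In all 14 every PPARα -/- mouse lay above every WT mouse, which held for 8.42% of all probesets.

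The complement and receptor genes separated in the same way with C22:6. C1qa read 8.74, 8.34, 9.06, 8.82 and 8.10 in PPARα -/- mice, and 6.88, 7.24, 6.87, 6.53 and 7.38 in WT mice, a difference of 1.63 (SE 0.32). C1qc read 8.04, 7.73, 8.63, 8.43 and 7.62 in PPARα -/- mice, and 6.36, 6.16, 6.48, 6.01 and 6.71 in WT mice, a difference of 1.75 (SE 0.31). Vsig4 read 9.02, 8.37, 8.98, 9.10 and 8.28 in PPARα -/- mice, and 7.05, 7.16, 7.51, 7.05 and 7.41 in WT mice, a difference of 1.51 (SE 0.31). Replicates 2 and 5 of the PPARα -/- mice were the lowest of their group for C1qc and Vsig4, yet stayed above all WT mice. The Csf1r probeset 1419872_at read 9.45, 8.70, 9.45, 9.64 and 8.65 in PPARα -/- mice, and 7.34, 7.42, 7.92, 7.51 and 7.69 in WT mice, a difference of 1.60 (SE 0.28).

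Cd68, Lyz2 and Marco differed more between mice of a group. With C22:6 Cd68 read 4.94, 4.92, 7.39, 5.32 and 4.60 in PPARα -/- mice, and 3.27, 2.68, 3.21, 2.72 and 3.16 in WT mice, a difference of 2.43 (SE 0.42, adjusted p = 2.9e-06). Replicate 3 of the PPARα -/- mice was the highest of all 93 mice in Cd68, Lyz2 (9.77), Cd5l (9.80), C1qa (9.06) and C1qc (8.63). Its Clec4f of 8.91 and Vsig4 of 8.98 were the medians of its group. PPARα -/- replicate 5 given WY14643 was the highest of its group in Cd68 (6.84), Lyz2 (9.39), Cd5l (9.49), C1qa (8.71) and C1qc (8.14). It was not the highest in Vsig4, Marco or Clec4f (8.73, against a group median of 8.55). Marco read 3.12, 3.42, 3.07, 5.94 and 2.12 in PPARα -/- mice given C22:6, and 1.76, 1.47, 1.30, 2.05 and 1.40 in WT mice. Here replicate 4, and not replicate 3, was the high mouse.

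**Figure D2:**
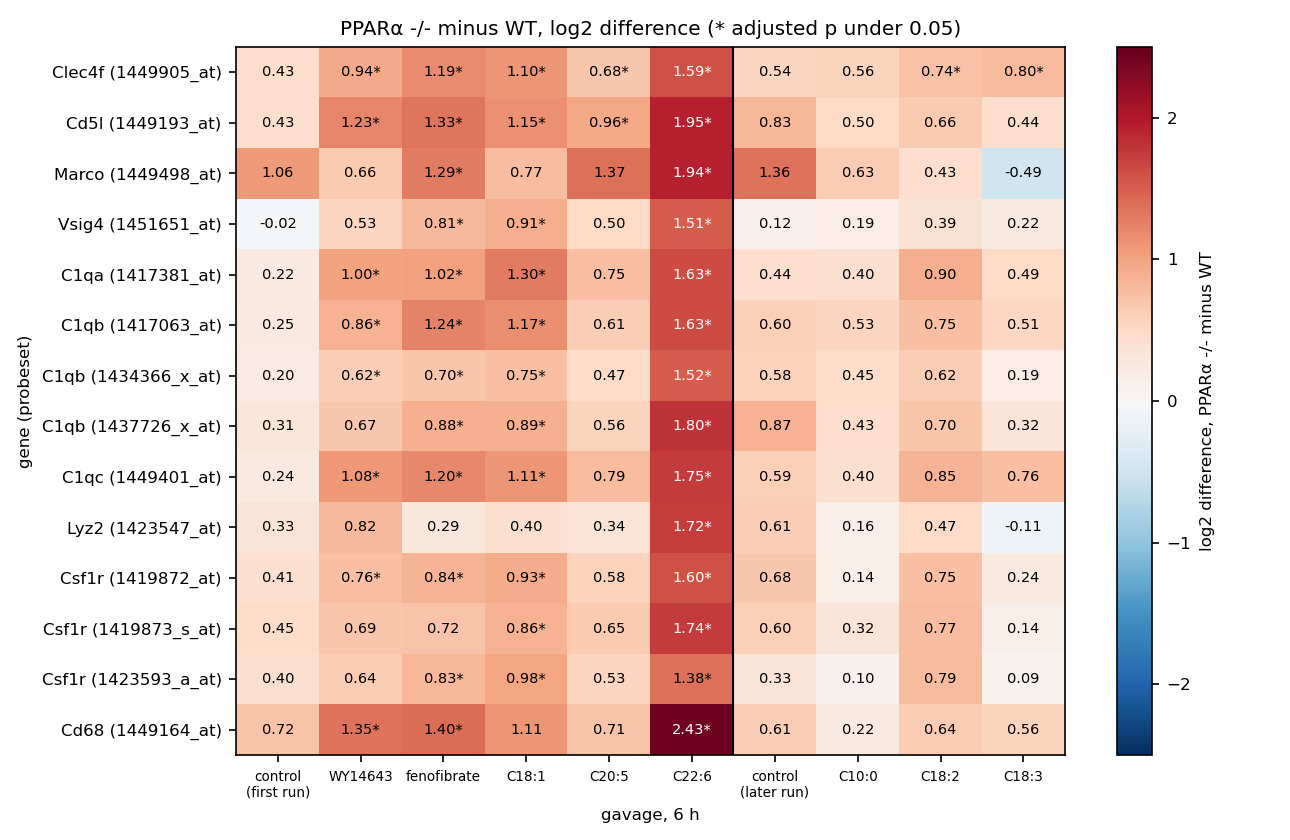
Difference in log2 signal, PPARα -/- minus WT, of the 14 probesets (rows) in each of the 10 treatments (columns), with an asterisk where the adjusted p was under 0.05 and a line between the runs. The column of C22:6 holds 14 asterisks and differences of 1.38 to 2.43, and the control columns hold 0.

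Fewer probesets passed with the other treatments of the first run. With fenofibrate, 12 of 14 were higher in PPARα -/- mice (19.2% of all probesets), with a median difference of 0.95, and Clec4f differed by 1.19 (SE 0.22, adjusted p = 1.1e-05). Leaving out PPARα -/- replicate 5 gave 6 calls, and leaving out WT replicate 2 or 3 gave 7. WT mice given fenofibrate were spread widely, with Clec4f at 7.61, 7.28, 6.70, 7.59 and 8.48, and in 0 of 14 probesets were all PPARα -/- mice above all WT mice, against 11.6% of all probesets. With C18:1, 11 of 14 were higher (7.51% of all probesets), by a median of 0.96 over all 14, and 6 or 7 passed without PPARα -/- replicate 4 or 5. Clec4f was 8.90, 8.98, 8.89, 9.22 and 9.13 in PPARα -/- mice given C18:1, and 8.13, 7.76, 7.87, 7.97 and 7.86 in WT mice. The genotypes did not overlap in 11 of 14 probesets with C18:1, against 6.29% of all probesets. With WY14643, 8 of 14 were higher (26.6% of all probesets), with 3 left without PPARα -/- replicate 5 and 4 without WT replicate 1. Every PPARα -/- mouse given WY14643 lay above every WT mouse in 2 of 14, against 22.8% of all probesets. With C20:5 Clec4f (0.68, SE 0.24) and Cd5l (0.96, SE 0.31) were higher, 2 of 14 probesets against 6.48% of all. Both calls were lost without any of 6 of the 9 C20:5 mice, and 5 passed without PPARα -/- replicate 3. The genotypes given C20:5 did not overlap in 2 of 14 probesets, against 8.38% of all.

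In the later run few probesets passed for a single treatment, and the direction was mostly upward. With C18:2 Clec4f was higher (0.74, SE 0.24, adjusted p = 0.022), 1 of 14 against 5.52% of all probesets, and all 14 differences were positive. None, 0 of 14, passed without PPARα -/- replicate 1 or without WT replicate 3, and 3 passed without PPARα -/- replicate 2. In 10 of 14 probesets with C18:2 every PPARα -/- mouse lay above every WT mouse, against 6.91% of all probesets, and in a fit of the C18:2 groups alone 11 passed. With C18:3 Clec4f was higher by 0.80 (SE 0.22, adjusted p = 0.0043), 1 of 14 against 14.7% of all probesets, and the median difference was 0.28. WT replicate 2 given C18:3 was the highest of its group in Marco (5.56), Lyz2 (9.27), C1qa (8.43), C1qc (7.62) and Clec4f (8.18), though not in Cd68 (3.73). Its mean log2 signal over the 10 genes was 7.75, against 6.41 to 6.68 in the other WT mice given C18:3. Without this mouse 2 of 14 passed. The difference with C18:3 was then 0.28 for Marco, against -0.49 with all mice, and 0.26 for Lyz2, against -0.11. Mice of the genotypes did not overlap in 1 of 14 probesets with C18:3, against 9.8% of all. With C10:0, 0 of 14 passed in limma (5.06% of all probesets higher), 1 had an unadjusted p under 0.05, and the median difference was 0.40. The genotypes were apart in 2 of 14 probesets with C10:0, against 4.27% of all.

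No marker passed between the genotypes in control mice of either run. In the first run 0 of 14 probesets were called by limma (3.72% of all probesets higher), 0 had an unadjusted p under 0.05, and the median difference was 0.36. In 0 of 14 did the genotypes not overlap, against 6.4% of all probesets. In the controls of the later run 0 of 14 were called (3.01% of all probesets higher), 6 had an unadjusted p under 0.05, all upward, and the median was 0.60. Clec4f was 8.22, 8.24, 8.79 and 8.59 in PPARα -/- controls of the later run, and 7.89, 7.77, 7.75 and 8.26 in WT controls, so that a WT mouse reached into the PPARα -/- range. Marco alone did not overlap there, 1 of 14 probesets against 4.72% of all.

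The controls of the first run contained a mouse apart from its group. Clec4f read 6.49, 8.70, 9.04, 8.16 and 8.64 in PPARα -/- controls 1 to 5, and 7.52, 7.57 and 8.24 in WT controls. PPARα -/- control replicate 1 was the lowest of its group for 9 of 10 genes, all except Marco, whereas it was the lowest for 17.8% of all probesets. Its mean log2 signal over the 10 genes was 4.97, against 6.64 to 7.79 in the other 4 PPARα -/- controls. C1qa was 4.95 in this mouse and 7.27 to 8.49 in the others, and Vsig4 was 5.14 against 7.29 to 8.65. Antigen presentation genes (5.36 against 6.80 to 8.40) and stellate cell and fibroblast genes (6.21 against 6.69 to 7.90) were also low. So were other macrophage genes (5.61 against 6.31 to 7.15) and, by less, sinusoidal endothelial genes (6.28 against 6.47 to 7.19). The 1 lymphocyte gene measured (4.76 against 5.59 to 7.17) and the monocyte genes (5.32 against 5.43 to 6.57) were below the other mice too. Neutrophil, cholangiocyte and red cell genes were not. Hepatocyte genes averaged 12.70 against 12.65 to 12.71. The array itself had a fitted quality weight of 1.1, in a range of 0.27 to 2.86 over all arrays.

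**Figure D3:**
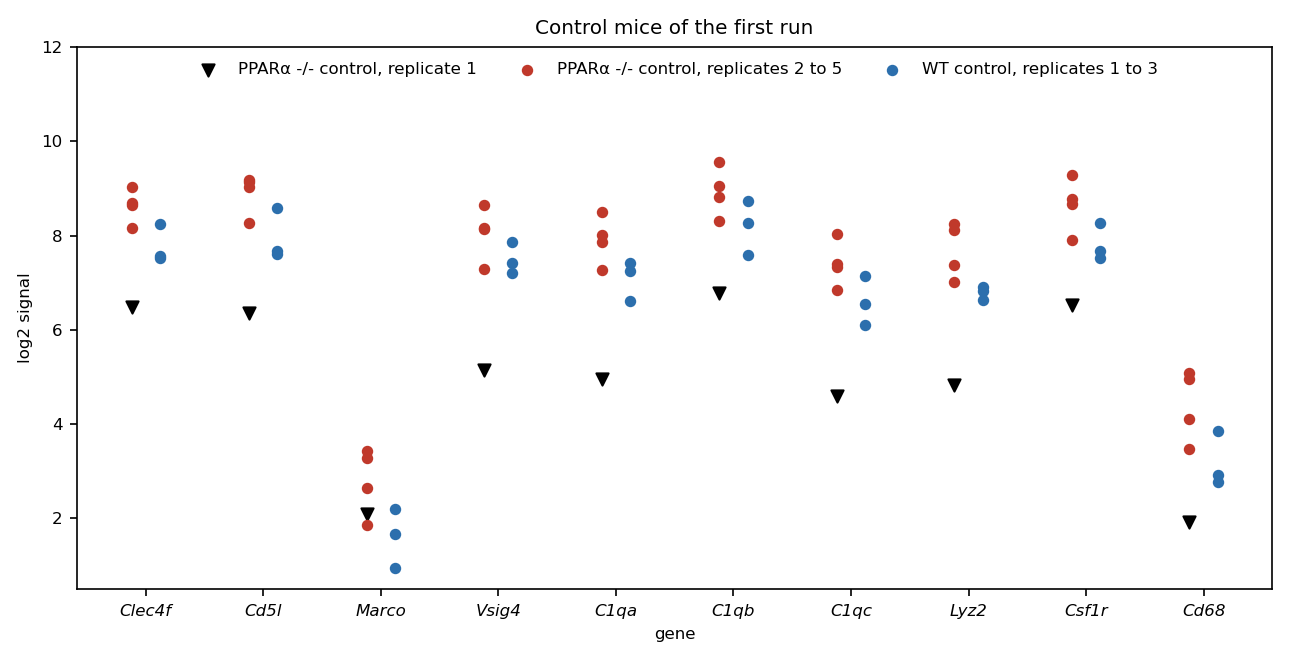
Log2 signal (y axis) of the 10 genes (x axis, for C1qb and Csf1r the probeset with the highest mean) in the control mice of the first run, with PPARα -/- replicate 1 as black triangles, the other PPARα -/- mice in red and WT mice in blue. The triangle is the lowest PPARα -/- point for every gene except Marco.

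Leaving out this mouse changed the control comparison. The median difference between PPARα -/- and WT controls was 0.84 without it, against 0.36 with it. Clec4f (0.86, SE 0.21, adjusted p = 0.004) and Cd5l (0.94, SE 0.30, adjusted p = 0.035) then were higher, 2 of 14 probesets against 3.93% of all. The remaining mice did not overlap in 1 probeset, that of Lyz2, against 8.74% of all. In the average over 10 treatments 14 of 14 were called, with a median of 0.82 without the mouse.

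In WT mice no marker passed for any treatment. For each of the 8 treatments 0 of 14 probesets passed in limma, and 0 had an unadjusted p under 0.05. WT mice given C22:6 were below their controls in all 14, by 0.01 to 0.68, with the largest difference for Cd5l (-0.68, SE 0.34, adjusted p = 0.28). Of all probesets, 11.6% were higher in WT livers with WY14643, 6.78% with fenofibrate, 0% with C18:1, 0.447% with C20:5 and 3.34% with C22:6, and in the later run 1.01% with C10:0, 0.307% with C18:2 and 2.24% with C18:3.

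In PPARα -/- mice 12 of 14 probesets were higher with C22:6 than in the controls of the run (5.87% of all probesets), with a median change of 1.07. Cd68 changed by 1.53 (SE 0.42, adjusted p = 0.01), C1qa by 1.30 (SE 0.32, adjusted p = 0.0046) and Clec4f by 0.83 (SE 0.22, adjusted p = 0.0083). Marco and the Csf1r probeset 1423593_a_at did not pass. This call rested on the control mouse described above. Without it the median change was 0.69 and 1 of 14 passed (3.52% of all probesets), a C1qb probeset, 1434366_x_at, at 0.62 (SE 0.21, adjusted p = 0.043), and Clec4f changed by 0.40 (SE 0.19, adjusted p = 0.16). In a fit of the groups compared alone 0 of 14 passed. The controls were also drawn from a narrower range of ages than the C22:6 mice.

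**Figure D4:**
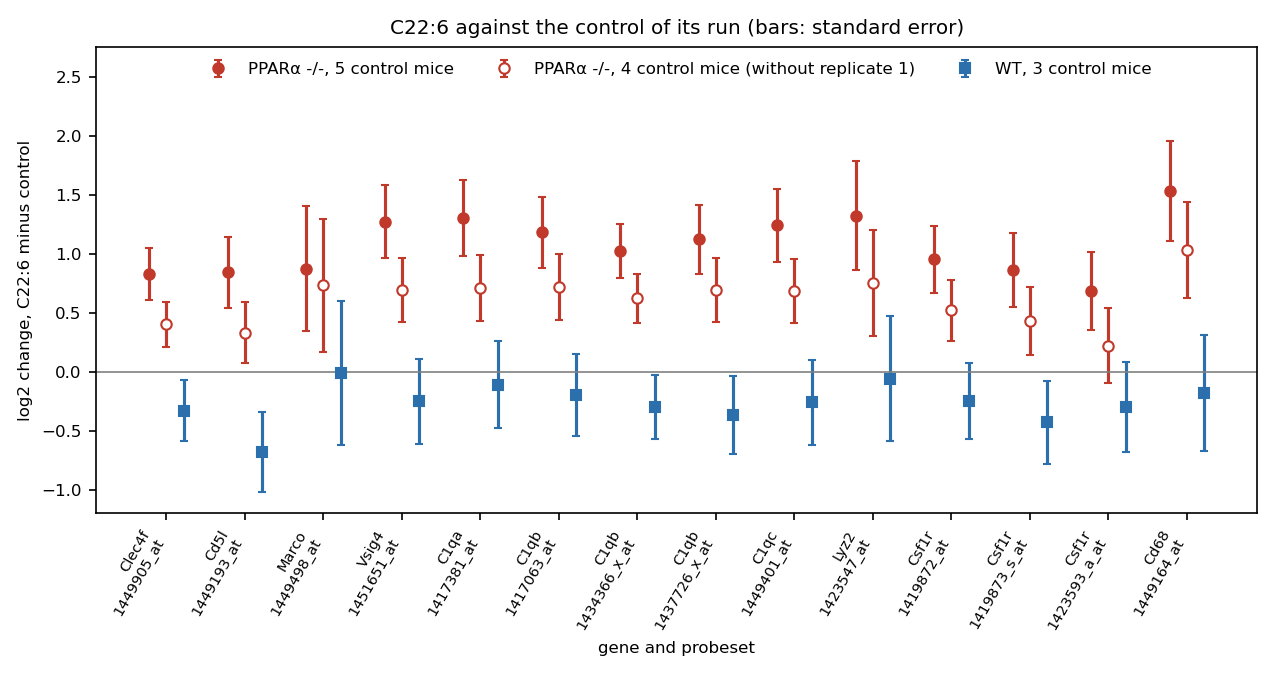
Change in log2 signal with C22:6 against the controls of the first run (y axis, bars are standard errors) for each probeset (x axis), in PPARα -/- mice with all 5 controls (filled red), without control replicate 1 (open red) and in WT mice (blue). The median of the red points is 1.07 with all controls and 0.69 without replicate 1, and all WT points lie below 0.

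Other treatments of PPARα -/- mice gave 1 call, Clec4f with C18:1 (0.82, SE 0.22, adjusted p = 0.047; 0.754% of all probesets higher), and 0 without the control mouse. With WY14643, fenofibrate and C20:5, 0 of 14 passed in limma, although 3, 8 and 0 had an unadjusted p under 0.05. Of all probesets 0%, 0.0964% and 0.0263% were higher with these treatments. Their median changes were 0.47, 0.57 and 0.25 with all controls, and -0.03, 0.13 and -0.22 without replicate 1. For the triglycerides of the later run, whose controls do not include this mouse, 0 of 14 passed in limma and 0 had an unadjusted p under 0.05, while 3.22% of all probesets were higher with C10:0, 0.114% with C18:2 and 5.69% with C18:3.

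Whether C22:6 changed the markers differently in the genotypes was tested as the difference of both changes. Clec4f (1.16, SE 0.34, adjusted p = 0.043), Cd5l (1.52, SE 0.45, adjusted p = 0.048) and the C1qb probesets 1434366_x_at (1.32, SE 0.35) and 1437726_x_at (1.49, SE 0.44) passed, 4 of 14 against 0.824% of all probesets. Without PPARα -/- control replicate 1, 0 of 14 passed (0.596% of all), and the median difference was 0.89, against 1.39 with it. The number passing was 0 to 10 when other single mice were left out, and 0 in a fit of these groups alone. For the other 7 treatments 0 of 14 passed, and at an unadjusted p under 0.05 there were 3 upward for fenofibrate, 1 upward for C18:1, 1 downward for C18:3 and 0 for WY14643, C20:5, C10:0 and C18:2. Without PPARα -/- control replicate 1 the upward ones were smaller. With fenofibrate they were 0.33 for Clec4f, against 0.76 with the mouse, 0.53 for C1qb 1417063_at, against 0.99, and 0.40 for C1qc, against 0.96, and with C18:1 0.48 for C1qa, against 1.08. The median differences without the mouse were -0.01 for WY14643, 0.16 for fenofibrate, 0.15 for C18:1 and -0.15 for C20:5, against 0.50, 0.63, 0.58 and 0.26 with it. Of all probesets 7.9% had a larger change in PPARα -/- mice with WY14643, 2.74% with fenofibrate, 0.333% with C18:3, 0.00876% with C10:0 and 0% with C18:1, C20:5 and C18:2.

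The markers went up and down together between mice of the same group. Deviations from the group mean were correlated over 93 mice for all 45 pairs of the 10 genes, with Pearson's r of 0.27 to 0.94 and a median of 0.77. Spearman's rho had a median of 0.71. C1qa and C1qc were the closest pair (r = 0.94), followed by Clec4f with Vsig4 and Cd5l with Csf1r (r = 0.92 each). The 9 pairs with Marco were the loosest (0.27 to 0.51), and the other 36 lay between 0.63 and 0.94. Permutation tests within groups gave p values between 1e-05, the smallest they can give, and 0.043, and all 45 stayed under 0.05 after adjustment over the pairs. Without the 2 mice farthest from the median of the first gene of a pair the median r was 0.71. It was 0.70 without PPARα -/- control replicate 1, 0.79 within the first run and 0.63 within the later run. All genes of a mouse share 1 array and its normalization, and pairs of other genes were not tested.

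Probesets of the same gene followed each other, with r of 0.84 to 0.94 among those of C1qb and 0.85 to 0.93 among those of Csf1r. Outside the set, 31 of 10265 probesets had an r of at least 0.8 with the mean of the markers. The probesets most like the mean of the markers over 93 mice, after removal of group means, were those of Tyrobp, an adaptor of myeloid receptors (r = 0.91), and Ctss, a lysosomal protease of antigen-presenting cells (r = 0.90). Then came Lyz1 with 2 probesets (0.88 and 0.87), Cd74, the invariant chain of MHC class II (0.88), Tmsb4x (0.87), Cfp, the complement regulator properdin (0.87), H2-Aa (0.87), Pla2g7 (0.86) and Cyba (0.85). Lyz1 is a near copy of Lyz2, and its x_at probesets may read both. Without PPARα -/- control replicate 1, 8 of these 10 probesets stayed among the 10 most alike.

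Other genes of macrophages, and markers of further cell types, were compared over the same 10 treatments, in which 36% of all probesets were higher in PPARα -/- mice. Of 34 other Kupffer cell and macrophage genes measured among 44 listed, 28 were higher in PPARα -/- mice and 2 lower, with a median of 0.60. The largest differences were those of Lgals3 (1.85), a lectin of activated macrophages, Cd14 (1.38), the co-receptor for lipopolysaccharide, Hmox1 (1.30), which degrades heme, and Mpeg1 (1.23), which forms pores in phagosomes. The nuclear receptor gene Nr1h3 (-0.17) and Apoe (-0.05) were lower. The antigen presentation genes H2-Aa (0.99), H2-Ab1 (0.94), Cd74 (0.94) and H2-Eb1 (0.93) were higher, as was H2-DMa, 5 of 5 measured among 9 listed. Of 18 monocyte genes listed, only 4 had a probeset among those deposited. All 4 were higher, led by Plac8 (1.32) and Chil3 (0.81), with Fn1 at 0.15. Chil3 was near the lower end of the array, with a lowest group mean of 1.05. Fn1 was bright, with a lowest group mean of 11.04. So few genes say little about monocytes, and which cells this RNA came from was not tested.

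Markers of other liver cells moved in part with these genes, and their counts stand against the same 36% of all probesets. Of stellate cell and fibroblast markers 14 of 14 measured among 16 listed were higher, with a median of 0.45. Among them were Col3a1 (1.71), Vim (0.82), Lum (0.78) and Col14a1 (0.68). Of sinusoidal endothelial markers 9 of 14 measured among 18 listed were higher, with a median of 0.18. The largest differences were those of Lyve1 (1.01), Vwf (0.83), Stab2 (0.53) and Tek (0.21). Lyve1 and Vwf were dim, with lowest group means of 2.41 and 2.96. Stab1 (0.02), Clec4g (-0.05), Kdr (0.12), Oit3 (-0.10) and Ehd3 (0.11) did not pass. Of 11 neutrophil markers listed only 3 were measured, and these were higher, Lcn2 by 2.22, S100a8 by 1.22 and S100a9 by 0.86. S100a8 and S100a9 were dim, with lowest group means of 2.21 and 2.02. So few genes say little about neutrophils, and which cells this RNA came from was not tested. Hepatocyte markers had a median of 0.04, with 8 of 15 measured among 17 listed higher, Tat (0.51) the most. With C22:6 the mean log2 signal of the 10 markers was 7.40 to 8.53 in PPARα -/- mice and 6.04 to 6.46 in WT mice, and that of 14 stellate cell and fibroblast markers was 6.91 to 7.70 in PPARα -/- mice and 6.14 to 6.48 in WT mice. The part of other cell types in the differences of the markers was not tested.

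**Figure D5:**
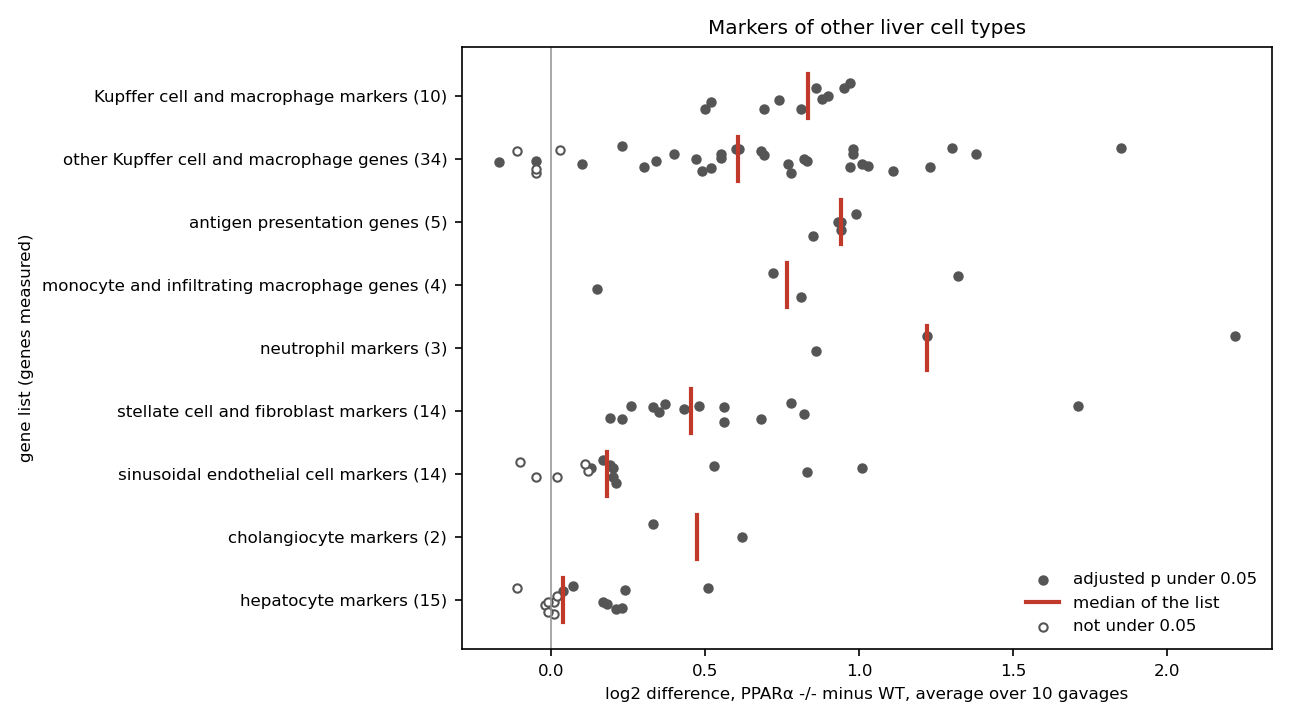
Difference in log2 signal, PPARα -/- minus WT, averaged over 10 treatments (x axis) for the genes of each list (rows, 1 point per gene, filled where the adjusted p was under 0.05, with the median in red). The medians are 0.84 for the 10 markers (1 probeset per gene), 0.60 for other macrophage genes, 0.45 for stellate cell and fibroblast markers and 0.04 for hepatocyte markers.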

How the data were processed

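The authors hybridised the liver RNA of each mouse to a whole-genome Affymetrix array (mouse genome 430 2.0) and deposited 1 intensity per probeset and array, on the linear scale, made with GC-RMA (GCRMA 2.20) and an empirical Bayes background after what their methods call quartile normalization. They had removed probesets of low variation. Of 11463 deposited probesets, 51 control probesets were left out. Intensities were put on the log2 scale, and 20 group means were fitted to all 93 arrays with limma 3.58.1 (lmFit, contrasts.fit, eBayes) in R 4.3.3. The p values were adjusted over 11412 probesets by the method of Benjamini and Hochberg, and a probeset was called where it was under 0.05. Symbols came from the platform annotation.

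The members and all gene lists were chosen with earlier results of these data known. Named are all members, up to 4 genes with the largest called change of each other list, and the 10 probesets most like the members. Few listed genes were measured for lymphocytes (1 of 17), red cells (1 of 7) and cholangiocytes (2 of 9). They were Ighm (0.71) on the lymphocyte list, Alas2 (0.61) on the red cell list, and Krt18 (0.62) and Krt8 (0.33) on the cholangiocyte list, all higher. Krt18 and Krt8 were bright, with lowest group means of 9.46 and 8.89. Krt19, Krt7, Epcam, Sox9 and Spp1 of the cholangiocyte list had no probeset in the data. So few genes say little about these cell types. Pairs were tested with 100000 resamples in Python 3.11.15.

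Alternatives were an inter-quartile range of at least 0.25 (10432 probesets), a floor on dim probesets (log2 signal 5 or more on 3 or more arrays, 11322), quantile normalization, 16 added to the intensities, an intensity trend, array weights, the groups compared alone, an unadjusted p under 0.01, leaving out each array and the replicate number as a block. Mice with the same replicate number are not stated to share anything. Their deviations from the group means all correlated above 0.1 in 2 of 26 comparisons. These were fenofibrate between genotypes (0.12 to 0.35) and WY14643 against control in PPARα -/- mice (0.11 to 0.30). The reported fits used no pairs there either, and the block was fitted as an alternative only. The p values measure the spread between mice taken as independent. The labels do not say whether mice shared a litter or cage, so this could not be checked. The scripts were tested on simulated data. The number of mice limits the precision.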

Additional observations from a re-analysis of the deposited data

Results flagged for a closer look

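In 15 of 266 combinations of a probeset and a group of 4 or 5 mice, 5.64%, a single mouse lay far from the others of its group by Dixon's ratio, which chance alone flags in about 1 of 20 groups. WT replicate 2 given C18:3 accounted for 5 of them, with log2 signals of 8.49 for Cd5l (7.65 to 7.86 in the other mice), 5.56 for Marco (1.48 to 1.89), 9.02 for the C1qb probeset 1437726_x_at (7.93 to 8.18), 9.27 for Lyz2 (7.20 to 7.65) and 5.81 for the Csf1r probeset 1423593_a_at (5.33 to 5.45). In WT mice given C18:1, replicate 1 was high in Cd5l (8.49) and replicate 4 in Marco (2.70). WT mice given C18:2 held a high C1qa in replicate 2 (7.50) and a low C1qb probeset 1434366_x_at in replicate 3 (7.27), and PPARα -/- mice given C18:2 a high C1qb probeset 1417063_at in replicate 4 (8.75) and a low 1437726_x_at in replicate 1 (8.14). The others were C1qb 1417063_at in WT replicate 2 given C20:5 (7.25, low), Csf1r 1423593_a_at in WT control replicate 4 of the later run (5.88, high), and Cd68 in PPARα -/- replicate 3 given C22:6 (7.39, high) and replicate 5 given C10:0 (4.43, high). PPARα -/- control replicate 1 was among 0 of them.

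The change with C22:6 differed between the genotypes, by the test of the difference itself, for Clec4f (1.16), Cd5l (1.52) and the C1qb probesets 1434366_x_at (1.32) and 1437726_x_at (1.49), each larger in PPARα -/- mice. Without PPARα -/- control replicate 1 these values were 0.73, 1.01, 0.92 and 1.06, and their adjusted p values 0.14, 0.15, 0.086 and 0.14.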

How the results depend on the processing

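The average difference between the genotypes had 14 of 14 probesets called under every alternative, and so did the difference with C22:6. Quantile normalization, both filters and the intensity trend moved no count of called probesets by over 1.5 times. In what follows the count of the reported fit stands in brackets, and the cause of each shift was not tested. With array weights the genotypes differed in 8 probesets with C20:5 (2), 7 with C18:2 (1) and 1 with C10:0 (0), C18:1 against control in PPARα -/- mice gave 8 (1), and the changes differed between genotypes in 11 with C22:6 (4), 2 with WY14643 (0) and 1 with fenofibrate (0). In fits of the groups compared alone, the genotypes differed in 5 with fenofibrate (12), 4 with C20:5 (2), 4 with C10:0 (0), 11 with C18:2 (1) and 2 with C18:3 (1), and 0 passed for C18:1 (1) and C22:6 (12) against control in PPARα -/- mice and for the difference in the change with C22:6 (4). With 16 added to the intensities C18:2 and C18:3 gave 2 each (1 each). At an unadjusted p under 0.01, later-run controls gave 1 (0), C18:1 against control in PPARα -/- mice 7 (1) and the difference in the change with C22:6 11 (4).

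With the replicate number as a block the genotypes differed in 4 probesets with WY14643 (8), 1 in later-run controls (0), 2 with C18:2 (1) and 2 with C18:3 (1), and C18:1 against control in PPARα -/- mice gave 0 (1). In the comparisons where mice of the same number correlated, the block gave 10 with fenofibrate between genotypes (12) and 0 for WY14643 against control in PPARα -/- mice (0).

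Leaving out each array in turn gave 0 to 2 called between genotypes in first-run controls, 3 to 11 with WY14643, 6 to 13 with fenofibrate, 6 to 10 with C18:1, 0 to 5 with C20:5, 0 to 1 in later-run controls, 0 to 3 with C18:2 and 1 to 2 with C18:3. It gave 0 to 6 for C18:1 and 1 to 13 for C22:6 against control in PPARα -/- mice, the lowest without control replicate 1, and 0 to 10 for the difference in the change with C22:6.

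Signs of single probesets were tallied over all alternatives for differences between genotypes, where they turned in results that were not called. Leaving out control replicate 1 also turned signs of changes against control in PPARα -/- mice that were not called, as for Clec4f with WY14643 (-0.07, against 0.36) and with C20:5 (-0.25, against 0.18). In first-run controls Vsig4 was -0.02, 0.04 with 16 added and -0.31 to 0.57 with an array left out, and Lyz2 was -0.02 with the block. There the ranges with an array left out were -0.07 to 0.81 for C1qa, -0.04 to 0.71 and -0.03 to 0.60 for the C1qb probesets 1417063_at and 1434366_x_at, and -0.05 to 0.80 for C1qc. In later-run controls Vsig4 was -0.15 with array weights and -0.01 to 0.33 with an array left out. Lyz2 ranged over -0.01 to 0.71 with C20:5, -0.07 to 0.61 with fenofibrate and -0.26 to 0.26 with C18:3, Marco over -0.74 to 0.28 with C18:3, and the Csf1r probeset 1423593_a_at over -0.03 to 0.22 with C10:0 and -0.09 to 0.23 with C18:3, where array weights gave -0.01. Marco and Cd68 were near the lower end of the signal range, which limits what their fold changes show.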
